A study of Homo sapiens with 6 samples.

Results

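The genes described are the proteasome genes whose names follow the PSM nomenclature, in HuCCT1 cells, an established human cholangiocarcinoma line, after knockdown of C1QBP. They were chosen by name, as protein-coding genes beginning with PSMA to PSMG and a number. This gave 49 of the 58735 genes in the count table. They are 8 alpha and 11 beta genes of the core particle, 6 ATPase (PSMC) and 14 non-ATPase (PSMD) genes, and 9 genes of activators, an inhibitor and assembly chaperones (PSME, PSMF and PSMG). The pattern also takes in PSMC3IP, which is named for a partnership with PSMC3 but works in meiotic recombination and is no subunit. It is left out of the ATPase class but counted among all members; without it, a choice made after seeing the data, 11 members were lower, 1 was higher and the median log2 fold change was -0.090. RNA was sequenced in 3 libraries labelled siC1QBP, from cells in which C1QBP was targeted by RNA interference, and 3 libraries labelled siNC, from cells treated with the control siRNA and marked wt. All 6 libraries are of the same cell line, and the labels name no time after transfection, no clone and no second siRNA. Nothing in them says that the replicates are separate cultures, so a p-value reflects only how far these libraries scatter, and that scatter may be technical.

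Library totals were 18031239, 17122252 and 18847340 counts in the siC1QBP libraries and 18313264, 20416243 and 18591174 counts in the siNC libraries. Levels are given in CPM, that is, as counts set relative to the library's size. For counting error alone, 3 counts corresponded to between 0.147 and 0.175 CPM, and a gene with no count could stand up to that level. C1QBP itself was at 59.1, 57.6 and 60.0 CPM in siC1QBP libraries, against 175, 181 and 185 CPM in siNC libraries, with a fitted level 32.7% of that in siNC. The biliary epithelial markers KRT7, KRT19, KRT8, KRT18, EPCAM, CDH1 and SOX9 were all expressed, from 55.1 CPM for SOX9 in a siNC library upwards. Of these 7, KRT7 (log2 fold change -0.26, edgeR adjusted p = 2.14e-04) and KRT19 (-0.19, edgeR adjusted p = 0.00862, up to 0.0794 with a library left out) were lower in siC1QBP libraries, by amounts like those of the called members below, and the part of such changes in the proteasome result was not tested. CD3E had no count, and PTPRC, CD68, ALB and APOB stayed at or below 0.333 CPM in every library. The endothelial PECAM1 and VWF and the fibroblast PDGFRB stayed at or below 2.71 CPM, while COL1A1 was at 35.7 to 40.1 CPM in siC1QBP libraries and 26.1 to 30.3 CPM in siNC libraries (log2 fold change 0.43, edgeR adjusted p = 0.00120). Bulk RNA cannot tell a lower level in every cell from a loss of transcript in some cells.

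The proteasome is the ATP-dependent protease that degrades proteins marked with ubiquitin in the cytosol and nucleus. Its barrel-shaped core is built of outer alpha rings, which gate the channel, and inner beta rings, which carry the proteolytic sites on PSMB5, PSMB6 and PSMB7. A regulatory particle of ATPases and non-ATPase subunits binds, deubiquitinates and unfolds substrates, other caps such as the PA28 complex open the core without ubiquitin, and dedicated chaperones assemble the parts. When proteasome capacity falls, the transcription factor NFE2L1 raises the transcription of most subunit genes together through antioxidant response elements in their promoters.

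Promoter sequence is shown because the subunit genes are known to be controlled together. RefSeq promoters (GRCh38.p14) were found for 43 of the 49 genes; PSMA7, PSMB1, PSMB6, PSMB7, PSMD4 and PSMG3 were not matched. The 250 bases before each start were searched on both strands for the antioxidant response core TGACNNNGC and for CCAAT, the box bound by NF-Y; no matches of the 2 motifs overlap in the windows printed. Below are 150-base windows, read 5′ to 3′ on the gene's strand, of 4 genes that were lower in siC1QBP libraries and of PSME1, which was higher. Capitals mark the motif matches, and ATTGG is CCAAT on the other strand.
PSMA3, chr14:58244681-58244830, plus strand: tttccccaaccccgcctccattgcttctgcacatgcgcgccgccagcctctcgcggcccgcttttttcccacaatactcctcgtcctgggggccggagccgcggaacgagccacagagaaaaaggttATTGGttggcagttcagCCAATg
PSMB3, chr17:38752586-38752735, plus strand: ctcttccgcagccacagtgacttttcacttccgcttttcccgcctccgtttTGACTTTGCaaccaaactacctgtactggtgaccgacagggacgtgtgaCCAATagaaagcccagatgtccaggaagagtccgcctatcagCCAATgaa
PSMB9, chr6:32853998-32854147, plus strand: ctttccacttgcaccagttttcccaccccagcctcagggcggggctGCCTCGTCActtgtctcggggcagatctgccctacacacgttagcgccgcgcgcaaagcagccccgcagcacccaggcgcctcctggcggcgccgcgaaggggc
PSMD12, chr17:67366628-67366777, minus strand: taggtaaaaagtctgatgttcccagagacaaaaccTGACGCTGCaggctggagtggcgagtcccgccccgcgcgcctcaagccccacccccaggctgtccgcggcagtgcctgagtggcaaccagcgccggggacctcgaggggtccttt
PSME1, chr14:24136008-24136157, plus strand: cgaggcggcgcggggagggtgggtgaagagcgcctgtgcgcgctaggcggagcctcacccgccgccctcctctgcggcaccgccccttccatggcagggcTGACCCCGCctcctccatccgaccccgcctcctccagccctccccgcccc

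TGACNNNGC occurred before 13 of 43 members (30.2%), against 3609 of 27305 genes with a promoter entry (13.2%). CCAAT occurred before 20 of 43 members (46.5%), against 10102 of 27305 genes (37%). Among the 9 members with an entry that were lower in siC1QBP libraries, 4 held TGACNNNGC and 7 held CCAAT. Among the 31 members with an entry and no call, 8 held TGACNNNGC and 12 held CCAAT. In PSMB3 both motifs stand within 104 bases of the start, while the searched bases of PSMD12 and PSME1 hold the antioxidant response core alone. The printed window of PSMB9 also shows that core alone, but CCAAT occurs elsewhere in its 250 searched bases. A match is a description of letters and says nothing of whether a factor was bound.

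Knockdown of C1QBP was accompanied by a small, mostly downward shift of proteasome transcripts. Of the 47 members that passed the low-count filter, 11 were lower and 1, PSME1, was higher in siC1QBP libraries at an adjusted p under 0.05 (edgeR quasi-likelihood test, adjusted over 15530 genes). That is 25.5% of the members, against 14.3% of all tested genes called in either direction. By direction, 23.4% of the members were lower, against 7.84% of all genes, and 2.13% were higher, against 6.47% of all genes. Among the 9782 genes averaging at least 10 CPM, as most members do, 12.0% were lower and 8.07% were higher. PSMA8, a testis alpha subunit, and PSMB11, the thymus beta subunit, had no count in any library.

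The changes were shallow. The median log2 fold change (siC1QBP over siNC) of the 47 members was -0.094, with a range of -0.34 to 0.23, against 0.003 over all tested genes. It was below 0 in 38 members (80.9%), against 49.4% of all genes. In 20 members (42.6%) every siC1QBP library lay below every siNC library, which held for 16.6% of all genes, and in 3 members (6.38%) every siC1QBP library lay above, which held for 16% of all genes. The 11 lower members had a median log2 fold change of -0.26. Summed over all members, the level was 5848, 5912 and 5941 CPM in siC1QBP libraries, against 6186, 6297 and 6302 CPM in siNC libraries, so the groups did not overlap. Summed over all tested genes, it was 1000344, 985900 and 987693 CPM in siC1QBP libraries, against 1003732, 1011520 and 1011121 CPM in siNC libraries. Those sums did not overlap either, so the lack of overlap is not particular to the members.

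The count depends on single control libraries and, for all genes, on the scaling. It was 7 lower and 0 higher without siNC replicate 2, and 6 lower and 1 higher without siNC replicate 3. Calls over all genes dropped too, to 581 lower and 524 higher without siNC replicate 2. They were 618 lower and 560 higher without siNC replicate 3. Scaled by library size alone, 9 members were lower and 1 higher, while over all genes the calls turned to 1253 higher and 908 lower, against 1005 higher and 1217 lower as reported.

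**Figure D1:**
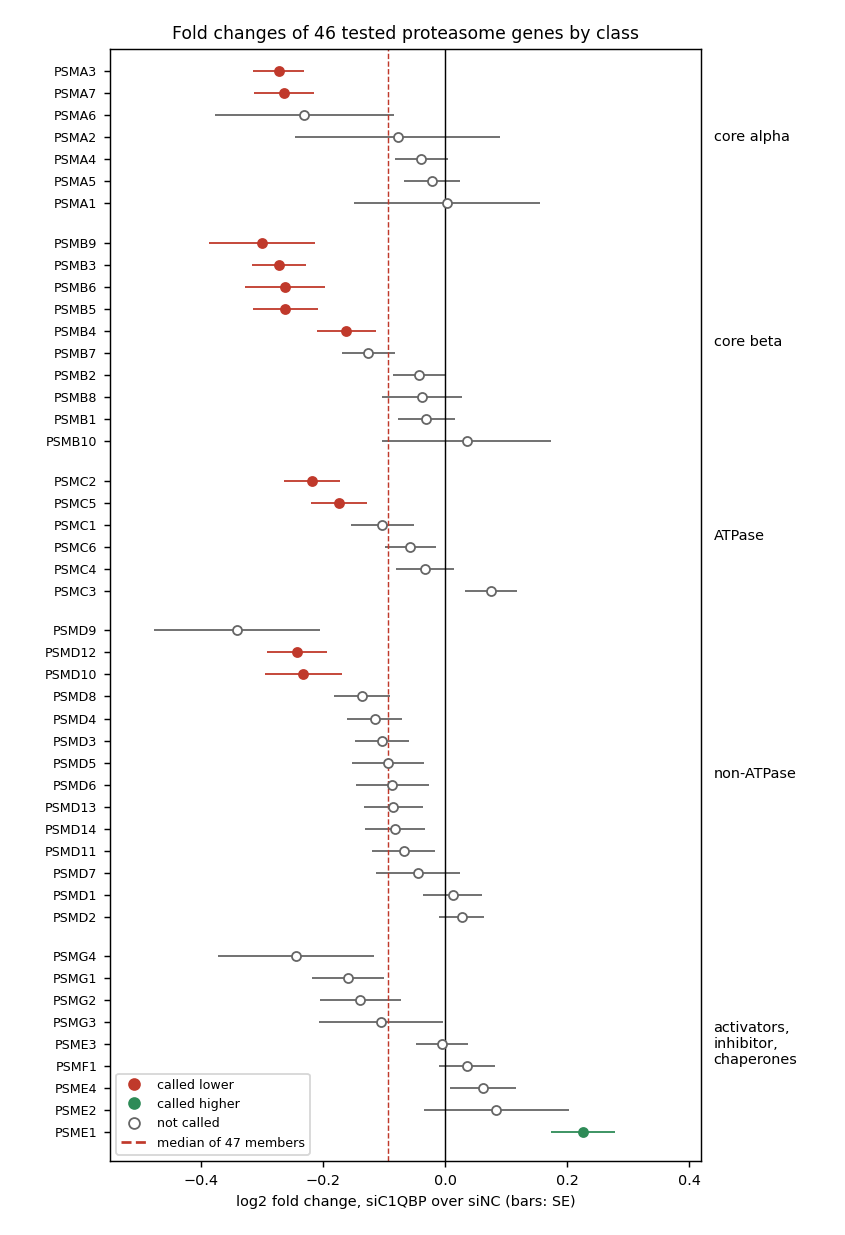
Log2 fold change (siC1QBP over siNC) ± standard error of 46 PSM genes, grouped by class, with the dashed line at the median of the 47 tested members, -0.094. Most points lie left of 0, and PSME1 alone is called to the right of it, at 0.23.

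The alpha subunits form the gate of the core. Of 7 tested alpha genes, PSMA3 and PSMA7 were lower and 5 did not pass the test, with a class median of -0.078. For this and the classes below, 7.84% of all tested genes were lower, and 12.0% of those averaging at least 10 CPM. No class or part of a class was tested against these shares. PSMA3 (ENSG00000100567, chr14:58244831-58272012, plus strand, hg38) was at 172, 172 and 174 CPM in siC1QBP libraries, against 207, 213 and 206 CPM in siNC libraries. PSMA7 (ENSG00000101182, chr20:62136735-62143440, minus strand), the alpha subunit with the highest level, was at 265, 297 and 295 CPM in siC1QBP libraries, against 332, 347 and 350.3 CPM in siNC libraries. Neither gene's groups overlapped, and siC1QBP replicate 1 was the lowest PSMA7 library. PSMA3 averaged 173 ± 1.14 CPM in siC1QBP libraries and 209 ± 4.02 CPM with siNC (SD over 3 libraries), a log2 fold change of -0.27 ± 0.042 (SE; edgeR adjusted p = 4.50e-04). PSMA7 averaged 286 ± 18.1 CPM in siC1QBP libraries and 343 ± 10.1 CPM with siNC (SD over 3 libraries), a log2 fold change of -0.26 ± 0.049 (edgeR adjusted p = 0.00177). Both calls held with each library left out, with adjusted p-values up to 0.00817 for PSMA3 and 0.0191 for PSMA7.

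PSMA4 and PSMA5, the alpha subunits with the highest CPM among those not called, lay close to 0 in log2 fold change. PSMA4 was at 171, 165 and 168 CPM in siC1QBP libraries, against 169, 174 and 174 CPM in siNC libraries, a log2 fold change of -0.039 with a 95% interval of -0.12 to 0.045 (edgeR adjusted p = 0.597). PSMA5 was at 107, 108 and 104 CPM in siC1QBP libraries, against 107, 108 and 108 CPM in siNC libraries, a log2 fold change of -0.021 with an interval of -0.11 to 0.070 (edgeR adjusted p = 0.809). In both genes the groups overlapped, and the intervals leave out a fall as large as that of PSMA3. PSMA1, PSMA2 and PSMA6 were counted at 28.7 CPM or less in every library, far below the other alpha genes. PSMA1 spread most: 15.1, 25.3 and 28.7 CPM in siC1QBP libraries, against 24.6, 22.6 and 21.7 CPM in siNC libraries. Its log2 fold change was 0.003 ± 0.15 (edgeR adjusted p = 0.992), and 0.23 without siC1QBP replicate 1, its lowest library (edgeR adjusted p = 0.0773). PSMA2 (log2 fold change -0.078, edgeR adjusted p = 0.805) and PSMA6 (-0.23, edgeR adjusted p = 0.324) did not pass the test.

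The beta subunits make up the inner rings. Of 10 tested beta genes, 5 were lower, none was higher, and the class median was -0.14. With the trend with gene length removed, that median was -0.055, against -0.070 for alpha, -0.099 for ATPase and -0.087 for non-ATPase genes. It was then the smallest fall of these. PSMB3, a structural subunit without a proteolytic site (ENSG00000277791, chr17:38752736-38764231, plus strand), was at 140.4, 144 and 140.2 CPM in siC1QBP libraries, against 167, 173 and 173 CPM in siNC libraries. PSMB4, also structural (ENSG00000159377, chr1:151399534-151401944, plus strand), was at 211, 231 and 232 CPM in siC1QBP libraries, against 244, 260.2 and 249.6 CPM in siNC libraries. In both genes every siC1QBP library was below every siNC library, with a tighter spread in PSMB3. The log2 fold change was -0.27 ± 0.044 (SE) for PSMB3 (edgeR adjusted p = 6.11e-04) and -0.16 ± 0.048 for PSMB4 (edgeR adjusted p = 0.0302). The PSMB4 call was lost without siNC replicate 2 (adjusted p = 0.156) or siNC replicate 3 (adjusted p = 0.0978), scaled by library size alone (adjusted p = 0.0699), with the stricter low-count filter of at least 10 CPM in 3 libraries (adjusted p = 0.0503), and with the trend with gene length removed (adjusted p = 0.192).

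Of the 3 catalytic subunits, 2 were called lower. PSMB5, with the chymotrypsin-like site (ENSG00000100804, chr14:23016543-23035230, minus strand), was at 78.6, 82.1 and 85.5 CPM in siC1QBP libraries, against 95.2, 96.3 and 104 CPM in siNC libraries. PSMB6, with the caspase-like site (ENSG00000142507, chr17:4796144-4798503, plus strand), was at 94.4, 109 and 113 CPM in siC1QBP libraries, against 117, 132 and 132 CPM in siNC libraries. PSMB7, with the trypsin-like site, was at 143, 149 and 149 CPM in siC1QBP libraries, against 159, 159.9 and 163 CPM in siNC libraries. All 3 genes separated the groups without overlap, and in each of them siC1QBP replicate 1 was the lowest library. PSMB5 had a log2 fold change of -0.26 ± 0.054 (edgeR adjusted p = 0.00369), 83.4% of the siNC level. PSMB6 had a log2 fold change of -0.26 ± 0.066 (edgeR adjusted p = 0.0128), 83.3% of the siNC level. PSMB7 did not pass the test, with a log2 fold change of -0.13 and a 95% interval of -0.21 to -0.040 (edgeR adjusted p = 0.0643). The PSMB6 call was lost without siNC replicate 2 (adjusted p = 0.0836) or siNC replicate 3 (adjusted p = 0.0773).

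PSMB8, PSMB9 and PSMB10 replace PSMB5, PSMB6 and PSMB7 in the interferon-inducible immunoproteasome. PSMB9 (ENSG00000240065, chr6:32844136-32859585, plus strand) was at 38.7, 47.1 and 50.4 CPM in siC1QBP libraries, against 49.9, 58.4 and 59.4 CPM in siNC libraries. Its groups overlapped, since siC1QBP replicate 3 exceeded siNC replicate 1. The log2 fold change was -0.30 ± 0.087 (edgeR adjusted p = 0.0282), and the call was lost without siC1QBP replicate 1 (log2 fold change -0.199, adjusted p = 0.0566), siNC replicate 2 (adjusted p = 0.130) or siNC replicate 3 (adjusted p = 0.134). It also missed the threshold when scaled by library size alone (adjusted p = 0.0526) or under the stricter filter (adjusted p = 0.0504). PSMB8 was at 58.4, 57.5 and 60.7 CPM in siC1QBP libraries, against 55.4, 65.8 and 60.0 CPM in siNC libraries, a log2 fold change of -0.038 with an interval of -0.17 to 0.089 (edgeR adjusted p = 0.750). PSMB10 was at 9.06, 11.8 and 11.5 CPM in siC1QBP libraries, against 9.39, 12.7 and 9.42 CPM in siNC libraries, a log2 fold change of 0.035 with an interval of -0.24 to 0.31 (edgeR adjusted p = 0.899). Neither gene separated the groups.

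Set per length, each inducible subunit stayed below its constitutive partner in all 6 libraries. In TPM, which divides counts by gene length before scaling, PSMB8 stood at 0.437, 0.413 and 0.418 of PSMB5 in siC1QBP libraries, against 0.342, 0.403 and 0.340 in siNC libraries. The ratio was higher in each siC1QBP library than in any siNC library, by little over siNC replicate 2, and was not tested. PSMB9 stood at 0.193, 0.203 and 0.210 of PSMB6 in siC1QBP libraries, against 0.202, 0.209 and 0.212 in siNC libraries. PSMB10 stood at 0.0611, 0.0765 and 0.0743 of PSMB7 in siC1QBP libraries, against 0.0570, 0.0766 and 0.0558 in siNC libraries. Both of these ratios overlapped between groups.

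PSMB2 and PSMB1, structural beta subunits, did not pass the test. PSMB2 was at 189, 179.7 and 179.9 CPM in siC1QBP libraries, against 187, 187 and 191 CPM in siNC libraries, a log2 fold change of -0.043 with an interval of -0.13 to 0.042 (edgeR adjusted p = 0.559). The groups overlapped through siC1QBP replicate 1. PSMB1 had a log2 fold change of -0.031 (edgeR adjusted p = 0.712), although its siC1QBP libraries all lay just below its siNC libraries.

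The 6 ATPases form the ring that unfolds substrates and threads them into the core. PSMC2 and PSMC5 were lower and 4 did not pass the test, with a class median of -0.080. PSMC2 (ENSG00000161057, chr7:103344254-103369395, plus strand) was at 108, 112 and 112 CPM in siC1QBP libraries, against 128, 133 and 126 CPM in siNC libraries. PSMC5 (ENSG00000087191, chr17:63827152-63832026, plus strand) was at 166, 182 and 176 CPM in siC1QBP libraries, against 194, 196 and 200.1 CPM in siNC libraries. Both genes separated the groups. The log2 fold change was -0.22 ± 0.046 for PSMC2 (edgeR adjusted p = 0.00450) and -0.17 ± 0.046 for PSMC5 (edgeR adjusted p = 0.0176). The PSMC5 call was lost without siNC replicate 2 (adjusted p = 0.0732) or siNC replicate 3 (adjusted p = 0.0968). PSMC5 also shares 19.5% of its exonic bases with FTSJ3 on the opposite strand, where the counting's strand setting is unknown.

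PSMC3, the ATPase gene with the highest level, had a positive log2 fold change that did not pass the test. It was at 262, 261 and 262 CPM in siC1QBP libraries, against 239, 254 and 252 CPM in siNC libraries, a log2 fold change of 0.075 with an interval of -0.008 to 0.16 (edgeR adjusted p = 0.260). Every siC1QBP library was above every siNC library. PSMC6 was at 162, 163 and 164 CPM in siC1QBP libraries, against 173, 169 and 167 CPM in siNC libraries, a log2 fold change of -0.057 with an interval of -0.14 to 0.026 (edgeR adjusted p = 0.410). PSMC1 (log2 fold change -0.10, edgeR adjusted p = 0.196) and PSMC4 (-0.033, edgeR adjusted p = 0.689) did not pass either; 75.8% of the exonic bases of PSMC1 lie opposite NRDE2, and 13 pseudogenes of PSMC1 held 673 counts beside its own 11189. PSMC3IP was at 16.3, 15.1 and 15.6 CPM in siC1QBP libraries, against 15.6, 17.8 and 18.7 CPM in siNC libraries, a log2 fold change of -0.15 (edgeR adjusted p = 0.320).

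Among the 14 PSMD genes, which include the lid and base scaffold of the regulatory particle, PSMD10 and PSMD12 were lower and 12 did not pass the test. Their count of lower genes lies near the share of 12.0% lower among all genes averaging at least 10 CPM. The class median was -0.090. PSMD12, a lid subunit (ENSG00000197170, chr17:67337916-67366627, minus strand), was at 128, 115 and 125 CPM in siC1QBP libraries, against 142, 147 and 148 CPM in siNC libraries. PSMD10, or gankyrin, which helps to assemble the ATPase ring (ENSG00000101843, chrX:108084207-108091618, minus strand), was at 45.0, 41.6 and 40.4 CPM in siC1QBP libraries, against 51.4, 48.1 and 49.7 CPM in siNC libraries. Both separated the groups, PSMD12 by the wider gap. The log2 fold change was -0.24 ± 0.049 for PSMD12 (edgeR adjusted p = 0.00335) and -0.23 ± 0.063 for PSMD10 (edgeR adjusted p = 0.0198). The PSMD10 call was lost without siC1QBP replicate 2 (adjusted p = 0.0677), siC1QBP replicate 3 (adjusted p = 0.0840), siNC replicate 1 (adjusted p = 0.0578) or siNC replicate 3 (adjusted p = 0.0712), and with the length trend removed (adjusted p = 0.127).

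PSMD2, the base scaffold that also receives ubiquitin carriers, had the highest CPM of all members and did not pass the test. It was at 803, 799 and 799.8 CPM in siC1QBP libraries, against 794, 773 and 790.0 CPM in siNC libraries, a log2 fold change of 0.027 with an interval of -0.046 to 0.10 (edgeR adjusted p = 0.686). PSMD3, a lid subunit, was at 221, 225 and 233 CPM in siC1QBP libraries, against 235, 242 and 252 CPM in siNC libraries, a log2 fold change of -0.10 with an interval of -0.19 to -0.018 (edgeR adjusted p = 0.127). Both separated the groups, in opposite directions. The ubiquitin receptor PSMD4 (log2 fold change -0.12, edgeR adjusted p = 0.0934) and the lid subunit PSMD8 (-0.14, edgeR adjusted p = 0.0561) lay nearest the threshold among these. The others were PSMD1, the other base scaffold (0.012), the lid subunits PSMD6 (-0.087), PSMD7 (-0.044), PSMD11 (-0.068) and PSMD13 (-0.085), and the deubiquitinase PSMD14 (-0.082), with edgeR adjusted p-values of 0.269 to 0.902.

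The assembly chaperones PSMD5, PSMD9, PSMD10 and PSMG1 to PSMG4 all had negative log2 fold changes, with a median of -0.16, but only PSMD10 passed the test. Of all tested genes, 49.4% were negative. The chaperones' median was -0.095 with the length trend removed and -0.124 without siC1QBP replicate 1. With a library left out, the log2 fold change of PSMG3 reached 0.044. PSMG1 (log2 fold change -0.16, edgeR adjusted p = 0.0825) and PSMG2 (-0.14, edgeR adjusted p = 0.179), which pair to build the alpha ring, separated the groups, as did PSMD5 by less than the printed digits (-0.094, edgeR adjusted p = 0.321). PSMG3 was at 36.3, 48.9 and 54.6 CPM in siC1QBP libraries, against 49.1, 52.5 and 48.8 CPM in siNC libraries (log2 fold change -0.10, edgeR adjusted p = 0.543). PSMG4, its partner, was at 16.2, 25.2 and 25.5 CPM in siC1QBP libraries, against 23.8, 27.1 and 28.5 CPM in siNC libraries (log2 fold change -0.24, edgeR adjusted p = 0.221). In both genes siC1QBP replicate 1 was well below its fellow replicates and the groups overlapped. PSMD9 was at 8.17, 6.58 and 7.14 CPM in siC1QBP libraries, against 7.96, 9.38 and 10.4 CPM in siNC libraries. It had the lowest log2 fold change of all members, -0.34, with a low count and a wide error (SE 0.14, edgeR adjusted p = 0.106).

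PSME1, the alpha subunit of the interferon-inducible PA28 activator (ENSG00000092010, chr14:24136158-24138967, plus strand), was the single member called higher. It was at 77.6, 83.3 and 83.6 CPM in siC1QBP libraries, against 70.0, 68.5 and 70.6 CPM in siNC libraries. The groups did not overlap. It averaged 81.5 ± 3.35 CPM in siC1QBP libraries and 69.7 ± 1.09 CPM with siNC (SD over 3 libraries), a log2 fold change of 0.23 ± 0.053 (edgeR adjusted p = 0.00843); without siNC replicate 2 the adjusted p was 0.0573. PSME2, its partner in the PA28 ring, was at 52.4, 61.6 and 64.4 CPM in siC1QBP libraries, against 61.6, 65.2 and 41.3 CPM in siNC libraries. The groups overlapped, siNC replicate 3 being far below the other two, and the log2 fold change was 0.084 ± 0.12 (edgeR adjusted p = 0.694), or -0.094 without that library (edgeR adjusted p = 0.541). Per length, PSME1 stood at 2.98, 2.72 and 2.61 times PSME2 in siC1QBP libraries, against 2.29, 2.11 and 3.43 times in siNC libraries, which overlap.

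The remaining caps did not pass the test. PSME3, the nuclear PA28 gamma, was at 250.4, 233 and 236 CPM in siC1QBP libraries, against 237, 243 and 242 CPM in siNC libraries, a log2 fold change of -0.005 with an interval of -0.090 to 0.081 (edgeR adjusted p = 0.962). PSMF1, the inhibitor PI31, was at 147, 139.9 and 142 CPM in siC1QBP libraries, against 144, 139 and 136 CPM in siNC libraries, a log2 fold change of 0.035 with an interval of -0.055 to 0.12 (edgeR adjusted p = 0.666). Both overlapped between groups. PSME4, the PA200 activator, had a log2 fold change of 0.062 (edgeR adjusted p = 0.490).

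**Figure D2:**
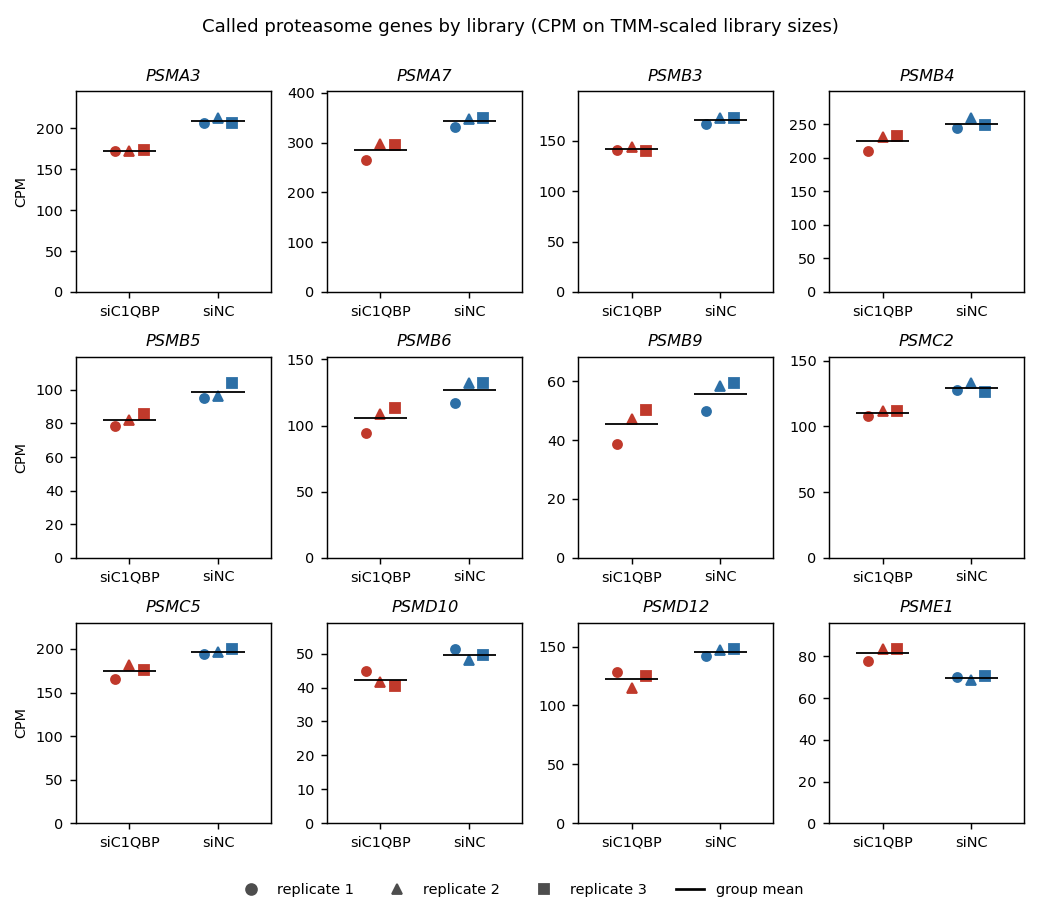
CPM by library of the 12 called members, siC1QBP to the left of siNC, with replicate symbols and a line at each group mean. The siC1QBP points lie below all siNC points in 10 panels, overlap them in PSMB9, and lie above them in PSME1.

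Members of the same particle are needed in equal numbers, and their transcripts were not at equal levels per annotated length. TPM here divides by all annotated exonic bases of a gene, not by the length of a transcript. PSMA3 and PSMA4 averaged 173 and 168 CPM in siC1QBP libraries, and 209 and 172 CPM in siNC libraries. With 3119 and 6996 annotated bases, they stood at 222 and 88.2 TPM. How far the differences between genes follow annotated length was not tested. Averaged over the 6 libraries, alpha genes ran from PSMA7 at 651 TPM and PSMA3 at 222 TPM to PSMA6 at 3.53 TPM and PSMA2 at 3.17 TPM. Constitutive beta genes kept a narrower range, from PSMB3 at 480 TPM to PSMB2 at 139 TPM, and ATPases ran from PSMC3 at 407 TPM to PSMC1 at 59.3 TPM. PSMD genes ran from PSMD2 at 528 TPM to PSMD9 at 3.42 TPM, and among the caps and chaperones PSME3 at 169 TPM was highest and PSMG4 at 8.49 TPM lowest.

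The faintest subunits coincide with shared annotation. In PSMA1, PSMA2, PSMA6, PSMB10 and PSMD9, 88.6%, 97.1%, 70.4%, 58.3% and 58.7% of the coding bases are also annotated to another gene on the same strand, against at most 14.2%, in PSMF1, for any other member. The overlapping genes AC018523.2 at PSMA1, AC010132.3 at PSMA2 and AL121594.1 at PSMA6 held 4, 2 and 6 counts in all 6 libraries together. AC040162.1 at PSMB10 held 86 counts, and at PSMD9 AC069503.2 held 5 and WDR66 held 516. Counting programs often leave out reads that fit more than 1 gene; whether that was done here is unknown, and its part in these levels was not tested. Without these 5 members, a choice made after seeing the data, 11 members were lower, 1 was higher, and the median log2 fold change was -0.098.

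**Figure D3:**
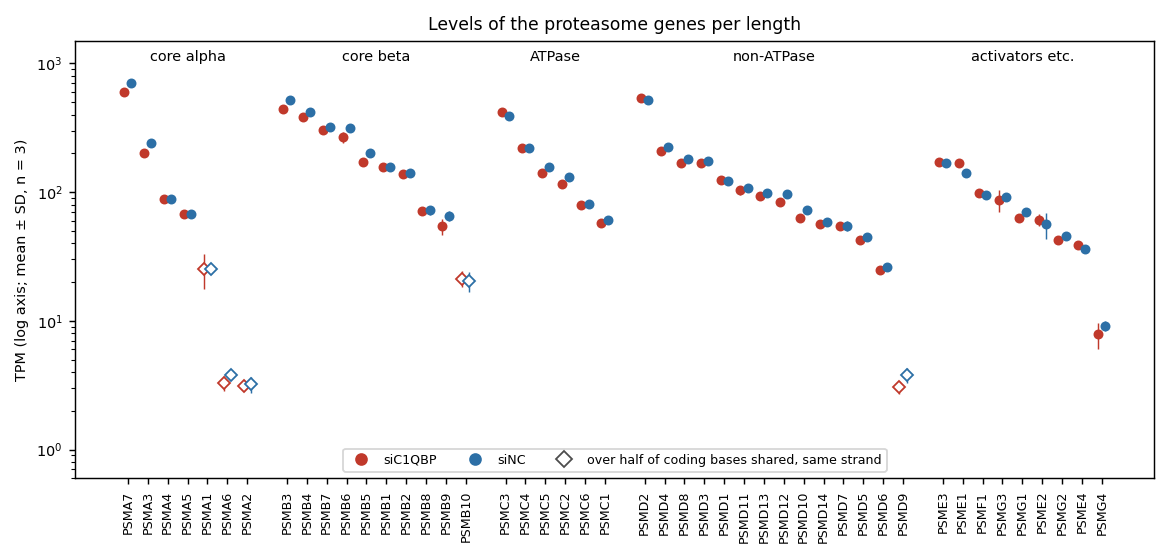
Mean TPM ± SD on a log axis of the members in siC1QBP and siNC libraries (n = 3 each), by class, with open diamonds for the 5 members whose coding bases are mostly shared with another gene on the same strand. The diamonds are the lowest points of the alpha, beta and non-ATPase classes, and the groups differ far less than the genes do.

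Length moved with the direction of change over all genes and therefore stands beside the members' shift. Among genes with 42 to 2292 annotated exonic bases, the shortest of 5 bins with about equal numbers of genes, 11.4% were lower and 2.90% higher in siC1QBP libraries, with a median log2 fold change of -0.043. In the longest bin, from 7823 bases, 3.19% were lower and 12.7% higher, with a median of 0.057. The 11 lower members had a median length of 2459 bases and the 35 uncalled members one of 4843 bases. Within the shortest bin, 5 of 11 members were lower and PSME1 was higher, with a members' median of -0.13; within the next, 4 of 14 were lower, with a median of -0.14, against 11.6% of all genes lower there. In the third bin 2 of 10 members were lower, with a median of -0.082, against 7.80% of all genes. In the fourth bin 0 of 8 were lower, with a median of -0.063, against 5.19% of all genes, and in the longest bin 0 of 4, with a median of -0.17.

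With each library's trend with length removed, 9 members were lower and 2 were higher, and their median log2 fold change was -0.079, against 0.010 over all genes. PSMB4 and PSMD10 lost their calls. PSME1 stood at 0.32 (edgeR adjusted p = 3.72e-04), and PSMC3 passed the test at 0.16 (edgeR adjusted p = 0.0148).

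**Figure D4:**
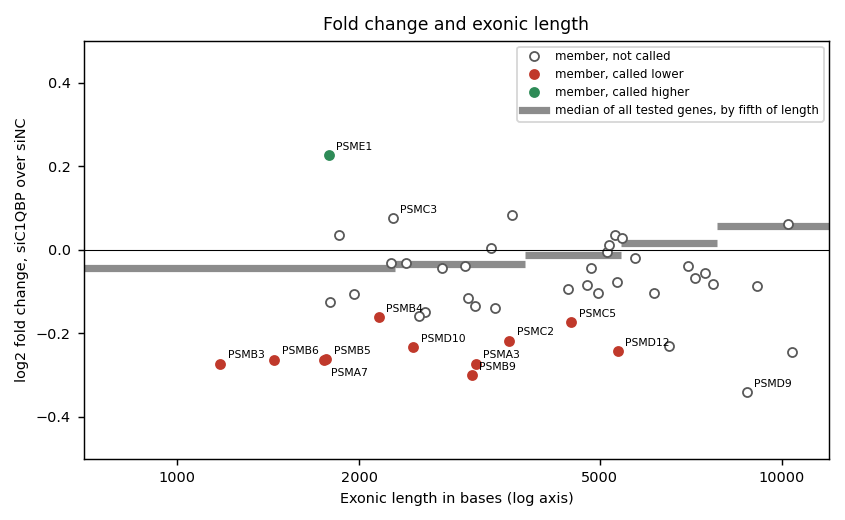
Log2 fold change (siC1QBP over siNC) of the 47 tested members against annotated exonic length in bases (log axis), with grey bars at the medians of all tested genes in 5 bins of length. The grey medians climb from -0.043 to 0.057, and the members' points lie mostly below them, with PSME1 the highest.

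Among genes that work with the proteasome but carry other names, calls went in both directions. Of all tested genes, 7.84% were lower and 6.47% higher. Among those averaging at least 10 CPM, 12.0% were lower and 8.07% higher. The short lists below were not tested against these shares. Of 11 assembly and bound factors, 2 were lower and 1 was higher, with a median log2 fold change of -0.083. POMP, the chaperone that completes the core, was at 122, 127 and 123 CPM in siC1QBP libraries, against 150.2, 161 and 163 CPM in siNC libraries (log2 fold change -0.35 ± 0.048, edgeR adjusted p = 1.57e-04). ADRM1, a ubiquitin receptor of the regulatory particle, was at 131, 147 and 149 CPM in siC1QBP libraries, against 165, 189.8 and 188 CPM in siNC libraries (log2 fold change -0.34 ± 0.059, edgeR adjusted p = 0.00107). Both log2 fold changes lay below those of all called members, and neither gene's groups overlapped. The ubiquitin ligase UBE3A was at 92.5, 84.9 and 76.7 CPM in siC1QBP libraries, against 73.9, 70.5 and 72.6 CPM in siNC libraries (log2 fold change 0.23 ± 0.063, edgeR adjusted p = 0.0231). That call was lost without siC1QBP replicate 1 (adjusted p = 0.0567), siC1QBP replicate 2 (adjusted p = 0.0579), siNC replicate 2 (adjusted p = 0.115) or siNC replicate 3 (adjusted p = 0.0826), and with the length trend removed (adjusted p = 0.0697).

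The regulator of the subunit genes was higher in siC1QBP libraries. NFE2L1, which is made as a membrane-bound precursor and activates subunit genes after release, was at 351, 340.4 and 352 CPM in siC1QBP libraries, against 307, 301 and 302 CPM in siNC libraries. The protease that releases it, DDI2, was at 67.8, 68.3 and 68.1 CPM in siC1QBP libraries, against 63.3, 57.8 and 54.5 CPM in siNC libraries. Every siC1QBP library was above every siNC library in both genes. The log2 fold change was 0.20 ± 0.040 for NFE2L1 (edgeR adjusted p = 0.00335, up to 0.0337 with a library left out) and 0.22 ± 0.060 for DDI2 (edgeR adjusted p = 0.0227). The DDI2 call was lost without siC1QBP replicate 2 (adjusted p = 0.0620), siC1QBP replicate 3 (adjusted p = 0.0605), siNC replicate 2 (adjusted p = 0.102) or siNC replicate 3 (adjusted p = 0.144), and with the length trend removed (adjusted p = 0.0766). They were the 2 higher genes of 13 in this arm, against 6.47% of all tested genes higher. None was lower, and the list's median was 0.056.

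Among ubiquitin genes, RPS27A and UBB were lower. RPS27A, which encodes ubiquitin fused to a ribosomal protein, was at 538, 602 and 591 CPM in siC1QBP libraries, against 701, 806 and 794 CPM in siNC libraries (log2 fold change -0.41 ± 0.054, edgeR adjusted p = 1.34e-04). The polyubiquitin gene UBB was at 225, 217 and 226 CPM in siC1QBP libraries, against 246, 256 and 251 CPM in siNC libraries (log2 fold change -0.17 ± 0.042, edgeR adjusted p = 0.00990). In both genes every siC1QBP library lay below every siNC library. The UBB call was lost without siNC replicate 2 (adjusted p = 0.0698) or siNC replicate 3 (adjusted p = 0.0557) and with the length trend removed (adjusted p = 0.286).

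Shuttle factors carry ubiquitinated proteins to the proteasome. Among them UBQLN2 was lower, and DDI1 had no count. Not every call of this list is reported here, so UBQLN2 gives no direction for the list. UBQLN2 was at 35.4, 34.3 and 35.5 CPM in siC1QBP libraries, against 43.5, 44.1 and 37.6 CPM in siNC libraries (log2 fold change -0.25 ± 0.071, edgeR adjusted p = 0.0257). Its groups did not overlap. The call was lost without siC1QBP replicate 2 (adjusted p = 0.0830), siC1QBP replicate 3 (adjusted p = 0.0514), siNC replicate 1 (adjusted p = 0.0803) or siNC replicate 2 (adjusted p = 0.134). None of 11 genes of the VCP segregase, which extracts substrates ahead of the proteasome, passed the test in either direction, with a median of 0.028. Of all tested genes, 14.3% passed it.

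The COP9 signalosome, a complex built on the plan of the proteasome lid, had 6 of 10 genes lower and none higher, with a median of -0.18. Of all tested genes, 7.84% were lower. GPS1 was at 136, 143 and 135 CPM in siC1QBP libraries, against 151, 174 and 170.5 CPM in siNC libraries (log2 fold change -0.25 ± 0.054, edgeR adjusted p = 0.00428). COPS6 was at 95.5, 99.7 and 105 CPM in siC1QBP libraries, against 112, 129.5 and 124 CPM in siNC libraries (log2 fold change -0.28 ± 0.058, edgeR adjusted p = 0.00388). COPS9 was at 26.3, 44.5 and 42.2 CPM in siC1QBP libraries, against 49.3, 52.1 and 52.3 CPM in siNC libraries (log2 fold change -0.44 ± 0.13, edgeR adjusted p = 0.0239). COPS4 (edgeR adjusted p = 0.0448), COPS5 (edgeR adjusted p = 0.0375) and COPS7A (edgeR adjusted p = 0.0380) were lower too, and the groups overlapped in none of these 6 genes. GPS1 and COPS6 kept their calls with each library left out, while the count of 6 became 4 without any siC1QBP library or siNC replicate 1, and 2 without siNC replicate 2 or siNC replicate 3. It was 3 by library size alone and 4 with DESeq2, under the stricter filter or with the length trend removed; COPS4 lost its call with each library left out (adjusted p = 0.0560 to 0.136). Without siC1QBP replicate 1, its lowest library, the log2 fold change of COPS9 was -0.245. The COPS9 call was lost with DESeq2 (DESeq2 adjusted p = 0.223). It was also lost without siNC replicate 2 (edgeR adjusted p = 0.0961) or siNC replicate 3 (edgeR adjusted p = 0.0869).

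Antigen processing, which uses peptides made by the proteasome, had 2 of 14 genes lower, none higher, and a median of -0.057. That count lies near the share of 12.0% lower among all genes averaging at least 10 CPM. CALR, a chaperone of class I molecules, was at 873, 872 and 863 CPM in siC1QBP libraries, against 956, 995 and 1002 CPM in siNC libraries (log2 fold change -0.18, edgeR adjusted p = 0.00446). B2M, their light chain, was at 811, 821 and 848 CPM in siC1QBP libraries, against 902, 938 and 939.7 CPM in siNC libraries (log2 fold change -0.16, edgeR adjusted p = 0.00924). Both separated the groups. The B2M call was lost without siNC replicate 2 (adjusted p = 0.0652) or siNC replicate 3 (adjusted p = 0.0678). TAP1, the neighbour of PSMB9, did not pass the test (log2 fold change -0.099, edgeR adjusted p = 0.248).

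**Figure D5:**
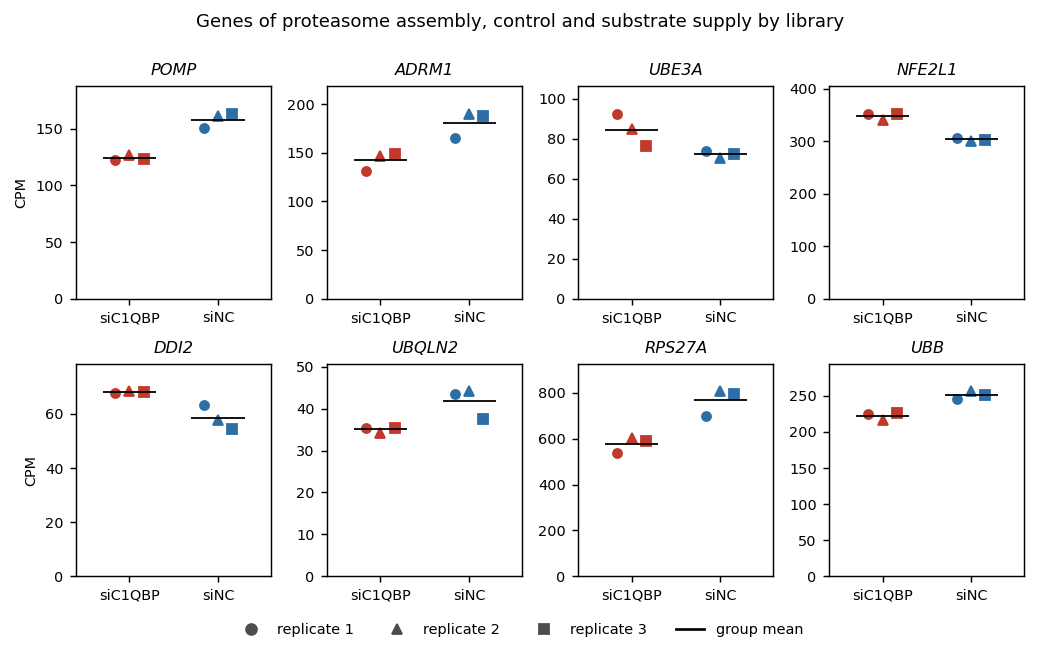
CPM by library of POMP, ADRM1, UBE3A, NFE2L1, DDI2, UBQLN2, RPS27A and UBB, siC1QBP to the left of siNC, with a line at each group mean. The siC1QBP points lie below all siNC points for POMP, ADRM1, UBQLN2, RPS27A and UBB and above them for the other genes.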

How the data were processed

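Per the labels' protocols, HuCCT1 RNA was extracted with an RNeasy kit and libraries were prepared with a strand-marking kit (NEBNext Ultra Directional). The deposited values are raw read counts by gene, not normalized. The submitters' processing notes name hg38. Which aligner, counter and strand option the authors chose is not given in the sources used, so reads of overlapping or antisense genes and of pseudogenes may be misassigned. All 58735 genes were found in GENCODE release 29 with the same coordinates.

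The test was edgeR's quasi-likelihood test (edgeR 4.0.16, R 4.3.3; TMM scaling, filterByExpr, treatment as the only term, Benjamini-Hochberg adjustment over 15530 genes, called at 0.05). Fold changes are siC1QBP over siNC; 95% intervals use the normal approximation. CPM use TMM-scaled library sizes. TPM, computed from counts and the deposited exonic lengths, serve for levels between genes. Chi-square per degree of freedom was 2.09 to 6.77 between libraries of a group and 7.12 to 18.0 between groups. Within siC1QBP it was 6.66 and 6.77 from replicate 1 to replicates 2 and 3, against 2.09 between those. Within siNC it was 2.13 to 3.67. Promoters came from RefSeq. The test was checked on simulated data with planted changes larger than those of the called members. That check does not cover changes of the members' size.

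Members and lists were chosen with earlier results of these data known. Each member is named; values per library are given for called members, the 2 uncalled members of highest CPM in each class and the inducible subunits with their counterparts, and from each related list for up to 3 called genes of smallest p and 1 of opposite direction. Of the genes so chosen, some are not reported here. Alternatives were DESeq2 1.42.0, 2 other scalings, 2 other filters, nuclear coding genes only, each library left out in turn, a block for the replicate number, removal of the length trend and a stricter threshold. Tables and plots used Python 3.11.15, pandas 2.3.3, numpy 2.4.6 and matplotlib 3.10.9.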

Additional observations from a re-analysis of the deposited data

How the results depend on the processing

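The 11 lower and 1 higher members became 11 and 1 with DESeq2, with RLE size factors or with nuclear coding genes only, 9 and 1 with library size alone or at least 10 CPM in 3 libraries, and 13 and 1 with every gene of at least 1 count. Leaving out each library gave 6 to 14 lower and 0 to 1 higher members, and over all genes 581 to 1468 lower and 524 to 1115 higher. An adjusted p under 0.01 left 6 lower members, and 579 lower and 478 higher genes. With the length trend removed, 2 members were higher. The members' median log2 fold change moved to -0.069 with library size alone and to -0.069 with at least 10 CPM, and ranged from -0.124 to -0.091 with a library left out. The cause was not tested. PSMA3, PSMA7, PSMB3, PSMB5, PSMC2 and PSMD12 kept their calls in every alternative; PSMB4, PSMB6, PSMB9, PSMC5, PSMD10 and PSME1 lost theirs in at least 1, and no called member changed sign. Of the uncalled members, 8 passed the test in at least 1 alternative. PSMA1, PSMA2, PSMA6, PSMB10 and PSMD9, whose coding bases are mostly shared with another gene, had standard errors of 0.136 to 0.168. The part of depth in this was not tested.

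Replicate numbers were not shown to pair the libraries: over 11089 genes, deviations from the group means of same-numbered libraries correlated at 0.202, 0.117 and 0.039, and siC1QBP replicate 3 correlated best with siNC replicate 2 (0.090). With the replicate number as a block, 15 members were lower and 1 higher, and over all genes 1758 were lower and 1334 higher.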
